A study of Mus musculus with 4 samples.

Results

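The genes described here are the ADAM, ADAMTS and TIMP genes, which encode the membrane-bound ADAM proteases, the secreted ADAMTS proteases and their tissue inhibitors. They were taken by symbol from the mouse annotation (GENCODE, genome build mm10) as the autosomal protein-coding genes named Adam or Adamts with a number, or Timp, and they numbered 55 of 20807 autosomal protein-coding genes. There were 33 ADAM genes, 19 ADAMTS genes and 3 TIMP genes (Timp2, Timp3 and Timp4). Each locus was the gene body and the 50 kb upstream of its TSS, and the loci together held 122 of the 35433 autosomal FAIRE-positive regions left after regions that overlapped between libraries were merged.

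FAIRE-seq, which sequences DNA that is not crosslinked to protein and so marks accessible chromatin, was performed in EpRas cells, a mouse mammary gland epithelial line that expresses active H-Ras. All 4 groups therefore carried active H-Ras, had been transfected with siRNA and were collected at day 4. They were siControl cells left untreated, siControl cells that had received TGF-β3 (1 ng/ml, called TGF-β below), and cells that had received TGF-β together with siEtv4/5 set 1 or set 2, which target the transcripts of Etv4 and Etv5, transcription factors of the ETS family. Each group had 1 list of regions; the study describes biological replicates, but whether a list pools them is not stated, so every value below compares lists and none was tested between conditions. The term library is used for the reads that 1 list was made from.

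The libraries differed in the number of regions that were called. On the autosomes the lists held between 14829 regions (set 2) and 28509 regions (siControl with TGF-β), whereas the estimated depth ran from 15.3 M reads (untreated) to 20.7 M reads (set 2), so that the deepest library had the shortest list. The median summit held 21 to 23 fragments in every library. Of 7 mammary epithelial marker genes, 3 to 5 had a region within 2 kb of the TSS in each library, among them Krt8 and Krt14 in all 4. Epcam had one in untreated cells only and Cdh1 in untreated and set 2 cells, and Krt5 had no region in its locus. Of 5 leukocyte and endothelial marker genes, Pecam1 had such a region in siControl with TGF-β and no other marker had one in any library, although 2 to 4 of these 5 genes had a region somewhere in the locus in each library.

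ADAM proteases sit in the cell membrane and cut the outer part off other membrane proteins, such as growth factor precursors, cytokines and adhesion molecules. ADAMTS proteases are secreted and cut proteoglycans and other proteins of the extracellular matrix. TIMPs bind metalloproteases and block them, and TIMP3 is the TIMP that inhibits ADAM17 and the aggrecan-cleaving ADAMTS enzymes. In epithelial cells that undergo epithelial-mesenchymal transition (EMT) under TGF-β, matrix turnover and shedding of cell surface proteins are part of the known change in cell behaviour.

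The sequences below are the windows of up to 300 bp around the summit of the strongest member region of each calling pattern (build mm10, + strand), with bases in annotated untranslated exons left out. Capitals mark matches, on either strand, to the AP1 motif TGANTCA, the ETS motifs CCGGAAG or CAGGAAG and the RUNX motif TGTGGTT. The first was called in all 4 libraries with the most fragments, the next is the member promoter with the highest count, and the others were called with TGF-β and not untreated, untreated and not with TGF-β, and in TGF-β-treated siControl but with neither siRNA set.
Adamts4, chr1:171222515-171222810: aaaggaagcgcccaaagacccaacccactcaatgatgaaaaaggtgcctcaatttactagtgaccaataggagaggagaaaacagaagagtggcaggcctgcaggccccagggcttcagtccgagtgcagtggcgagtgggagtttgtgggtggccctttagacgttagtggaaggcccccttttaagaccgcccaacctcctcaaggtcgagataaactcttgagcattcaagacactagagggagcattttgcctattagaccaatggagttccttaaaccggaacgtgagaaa
Adam17, chr12:21373633-21373783: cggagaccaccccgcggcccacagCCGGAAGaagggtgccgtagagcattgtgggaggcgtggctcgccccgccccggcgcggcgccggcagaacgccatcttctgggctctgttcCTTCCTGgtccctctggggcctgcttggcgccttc
Timp2, chr11:118363245-118363544: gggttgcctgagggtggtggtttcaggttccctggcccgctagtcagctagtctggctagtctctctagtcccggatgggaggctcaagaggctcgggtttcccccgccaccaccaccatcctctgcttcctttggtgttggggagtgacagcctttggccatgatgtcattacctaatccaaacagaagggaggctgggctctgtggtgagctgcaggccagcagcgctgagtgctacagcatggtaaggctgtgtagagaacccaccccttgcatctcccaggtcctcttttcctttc
Adam33, chr2:131094873-131095172: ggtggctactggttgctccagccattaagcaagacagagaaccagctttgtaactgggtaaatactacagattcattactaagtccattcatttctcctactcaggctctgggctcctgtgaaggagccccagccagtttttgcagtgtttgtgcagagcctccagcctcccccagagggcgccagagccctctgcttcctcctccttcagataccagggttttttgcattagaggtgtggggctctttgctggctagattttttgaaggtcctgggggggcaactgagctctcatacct
Adamts1, chr16:85800690-85800989: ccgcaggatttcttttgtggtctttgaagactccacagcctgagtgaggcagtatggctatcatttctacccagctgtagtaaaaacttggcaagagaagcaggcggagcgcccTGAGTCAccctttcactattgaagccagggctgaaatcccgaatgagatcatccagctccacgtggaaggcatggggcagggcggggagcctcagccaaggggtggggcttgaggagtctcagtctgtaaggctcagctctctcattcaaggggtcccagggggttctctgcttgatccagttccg
The Adam17 promoter stretch held 2 ETS matches and the Adamts1 intron held 1 AP1 match, whereas the other 3 windows held no match to the motifs searched.

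Member loci held regions less often than the loci of all genes in each library, by margins that exceeded the counting interval in untreated cells only. At least 1 region was present in 29 of 55 member loci in untreated cells, 37 in siControl with TGF-β, 32 in the set 1 library and 27 in the set 2 library. The corresponding shares over all autosomal protein-coding genes were 67.9%, 70.9%, 66.8% and 57.7%, against 52.7% (95% Wilson interval 39.8 to 65.3), 67.3% (54.1 to 78.2), 58.2% (45 to 70.3) and 49.1% (36.4 to 61.9) of members. All such intervals cover counting error only. Promoters stood below the background in all 4 libraries, with intervals that did not reach it. A region lay within 2 kb of the TSS in 8 of 55 members untreated, 13 with TGF-β, 9 in set 1 cells and 7 in set 2 cells. Over all genes these shares were 35.9%, 37.6%, 33.8% and 27%, and among members they were 14.5% (7.56 to 26.2), 23.6% (14 to 36.3), 16% (8.86 to 28.3) and 12.7% (6.3 to 24). The 13 members with a promoter region in any library had a median of 17 CpGs in the 300 bases around the TSS and the 42 members without had 7, beside 20 and 5 over all genes with and without one.

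**Figure D1:**
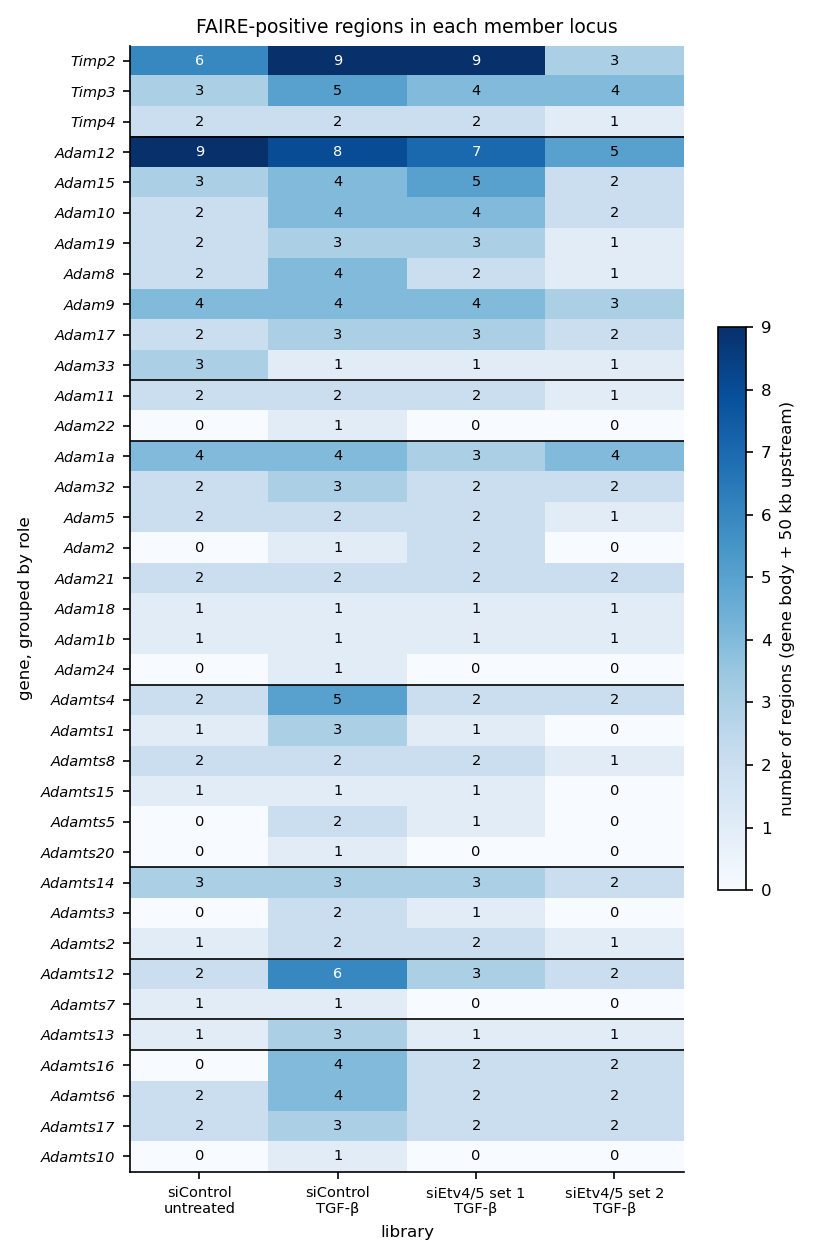
Number of FAIRE-positive regions (colour and digits) in the body and 50 kb upstream of each member with at least 1 region, by library (columns), with genes grouped by role from the TIMP genes at the top to the fibrillin-linked and other ADAMTS genes at the bottom. Timp2 and Adam12 hold up to 9 regions in a library, whereas Adamts16 goes from 0 untreated to 4 with TGF-β.

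The loci held 66 regions in untreated siControl, 104 after TGF-β, 78 in the set 1 library and 49 in the set 2 library. This order follows the length of the lists, of which the members took 0.299% (0.235 to 0.380), 0.365% (0.301 to 0.442), 0.349% (0.280 to 0.436) and 0.330% (0.250 to 0.437). Per Mb the member loci held 9.83, 15.5, 11.6 and 7.30 regions, and the loci of all genes held 13.1, 16.5, 13.1 and 8.88. Of the 122 merged regions, 37 (30.3%) were called in all 4 libraries, close to the 29.7% of all autosomal regions. A further 29 (23.8%) were called in siControl with TGF-β alone, beside 16% of all regions, and 3 (2.46%) in untreated cells alone, beside 7.70%.

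The first comparison asked where accessible chromatin appeared or disappeared with TGF-β in siControl cells. Of the 104 member regions with TGF-β, 47 (45.2%, 36 to 54.8) overlapped no untreated region and are called gained, and 36.9% of all autosomal regions were gained by this rule. Of the 66 untreated regions, 9 (13.6%, 7.34 to 23.9) overlapped none with TGF-β and are called lost, beside 18.3% of all. When each list was shortened to the length of the shortest, the members had 20 of 46 regions gained and 22 of 48 lost, beside 34.4% gained and 34.2% lost over all regions at that length. Lists of equal length gain and lose nearly the same number of regions by construction, so this setting says little about the excess of gained over lost regions. The lost share of members stood above that over all regions at this length, whereas in the full lists it stood below. Gained member regions held 13 to 37 fragments at the summit in the TGF-β library with a median of 20, and regions shared with untreated cells held 15 to 49 with a median of 26. The same medians, 20 and 26, were found over all autosomal regions. A narrower rule on calling limits, chosen after the data were seen, is defined with the families below. By that rule 15 of the 104 regions were gained and 6 of the 66 were lost. Over all regions these shares were 14.8% and 5.7%, so the members did not gain a larger share than all regions.

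The shares were not alike across the families, a split that was looked at after the values were seen and not tested. The ADAMTS loci held 17 regions untreated, 42 with TGF-β, 22 in set 1 cells and 15 in set 2 cells. Their share of the library was 0.0771% (0.0481 to 0.123) untreated and 0.147% (0.109 to 0.199) with TGF-β. Of the 42 regions, 26 (61.9%, 46.8 to 75.0) were gained, whereas 1 of the 17 untreated regions was lost. The ADAM loci held 38, 46, 41 and 26 regions in the same order, with 15 of 46 (32.6%, 20.9 to 47.0) gained. The TIMP loci held 11, 16, 15 and 8 regions, with 6 of 16 (37.5%, 18.5 to 61.4) gained. The ADAMTS share did not rest on any of the 3 genes with the most regions, since it was 61.1% without Adamts12, 57.9% without Adamts16 and 62.2% without Adamts4. With lists of equal length 8 of 16 ADAMTS regions (50%, 28 to 72.0) were gained and 6 of 14 were lost, and this interval took in the 34.4% gained over all regions. The TIMP loci had 5 of 10 regions gained and the ADAM loci 7 of 20 under the same setting, so the ADAMTS share did not stand above that of the TIMP loci. By a narrower rule chosen after the data were seen, in which the lower 95% bound of a region must lie above the calling limit of the other library, 10 of 42 ADAMTS regions (23.8%, 13.5 to 38.5) were gained, beside 14.8% of all regions, 1 of 46 ADAM regions and 4 of 16 TIMP regions (25%, 10.2 to 49.5).

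**Figure D2:**
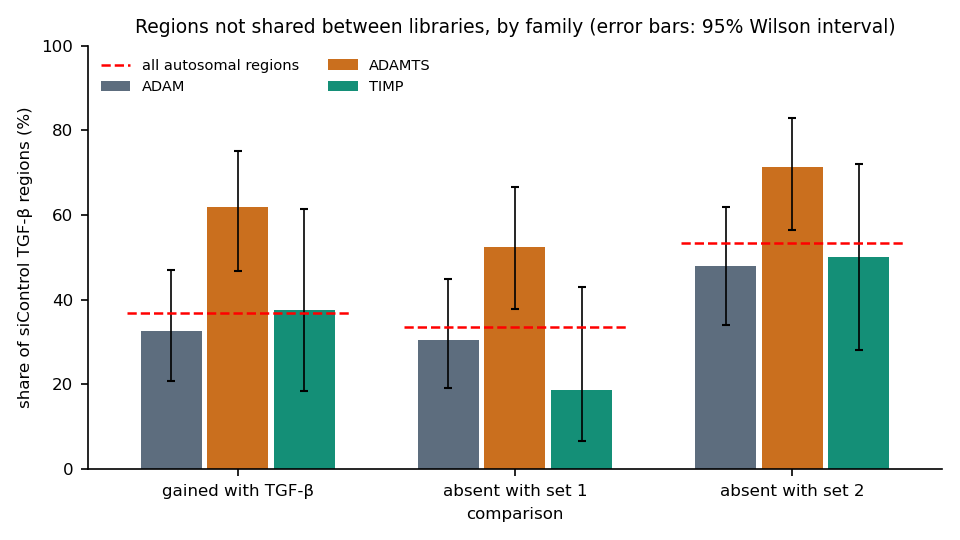
Share (%) of the siControl TGF-β regions of each family that were not called untreated (gained) or not called with set 1 or set 2 (absent), with 95% Wilson intervals as error bars and the share over all autosomal regions as a dashed line. The ADAMTS bars stand at 61.9%, 52.4% and 71.4%, each with an interval above the line as drawn, though without Adamts12 the last interval (53.1 to 82.0) reaches it. By the narrower rule on calling limits, which is not drawn, each ADAMTS interval takes in the share over all regions.

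The second comparison asked which regions of TGF-β-treated cells were not called when Etv4 and Etv5 were targeted. From the 104 member regions of TGF-β-treated siControl cells, 39 (37.5%, 28.8 to 47.1) were missing in the set 1 list and are called absent, beside 33.5% of all autosomal regions. With set 2, 60 (57.7%, 48.1 to 66.7) were absent, beside 53.4% of all. In the opposite direction, 11 of 78 set 1 regions (14.1%, 8.06 to 23.5) and 5 of 49 set 2 regions (10.2%, 4.44 to 21.8) were not called in siControl, beside 15.1% and 10.2% of all. The members thus lay close to the background in both directions. Among the families, 22 of 42 ADAMTS regions (52.4%, 37.7 to 66.6) had no counterpart in the set 1 list and 30 (71.4%, 56.4 to 82.8) had none in the set 2 list. Without Adamts12 the set 2 share was 69.4% (53.1 to 82.0), which takes in the share over all regions. Where summits within 500 bp count as shared, the interval was 51.6 to 79.0. The share over all regions was not counted by that rule. The ADAM loci had 14 of 46 (30.4%, 19.1 to 44.8) and 22 of 46 (47.8%, 34.1 to 61.9) absent. The TIMP loci had 3 of 16 (18.8%, 6.59 to 43.0) and 8 of 16 (50%, 28 to 72.0) absent. The siControl TGF-β list enters the comparison with untreated cells and both comparisons with siRNA, so a region that is high by chance in that list counts in all of them. With lists of equal length, 17 of 46 member regions were absent with set 1 and 17 of 46 with set 2, beside 31.3% and 33.4% of all regions at that length. In the opposite direction 22 of 52 and 20 of 49 were called with the siRNA set only, beside 31.2% and 32.8% of all. For the ADAMTS loci 9 of 16 regions (56.2%, 33.2 to 76.9) were then absent with each set, and 7 of 14 and 8 of 15 were called with set 1 or set 2 only. By the narrower rule on calling limits, 11 of 42 ADAMTS regions (26.2%, 15.3 to 41.1) were absent with set 1, beside 15.5% of all. With set 2, 20 of 42 (47.6%, 33.4 to 62.3) were absent by this rule, beside 40.5% of all. Both intervals take in the share over all regions.

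For single regions, values are given as the fold enrichment, which is the authors' ratio of summit signal to local background, or as the number of fragments at the summit, which was recovered from that ratio and its p-value. Where a region was not called in a library, the calling limit is given, which is the estimated number of fragments that a region needed there to be called. Positions are distances of the summit from the TSS.

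ADAM17, the main sheddase of TNF and of several EGF receptor ligands, is encoded on chromosome 12 (chr12:21323509-21373632, - strand). The region at its promoter lay at the TSS and had a fold enrichment of 6.84 in untreated siControl, 13.7 after TGF-β, 7.37 in the set 1 library and 6.41 in the set 2 library. The summit counts were 16, 39, 19 and 20 fragments, which per M reads of depth (FPM) are 1.05, 2.40, 1.1 and 0.968. The siControl TGF-β value was the highest, and the other 3 lay close together. Its 95% Poisson interval of 1.7 to 3.28 FPM did not overlap that of the untreated library (0.598 to 1.7) or of set 2 (0.591 to 1.5), but overlapped that of set 1 (0.662 to 1.72). On the log2 scale the fold enrichment differed by 1.00 with TGF-β, by -0.89 with set 1 and by -1.09 with set 2. These 3 differences share the siControl TGF-β library. When the libraries were scaled to the same median summit, no interval at this promoter was separate from another in these comparisons. The promoter holds 30 CpGs in 300 bases, and a second Adam17 region, in an intron at 3.16 kb, was called only in siControl with TGF-β, with 22 fragments.

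ADAM10, which cuts Notch receptors and E-cadherin, had a promoter region in all 4 libraries with little spread. Its fold enrichment was 7.42 untreated, 7.03 with TGF-β, 7.47 in set 1 cells and 7.35 in set 2 cells, and the summit counts were 22, 21, 22 and 24 fragments. The 4 Poisson intervals overlapped. The Adam10 locus held 5 regions in all, of which the one at -21.7 kb, at the promoters of Mindy2 and Gm10642, was also called in all 4 libraries with 18, 28, 27 and 20 fragments. ADAM9, a widely expressed sheddase, shares its promoter region with the neighbouring gene Tm2d2. This region held 32 fragments untreated, 37 with TGF-β, 27 in set 1 cells and 26 in set 2 cells. A second region just inside the gene at 1.91 kb held 27, 29 and 32 fragments in the first 3 libraries and was not called with set 2, where the calling limit was 20.

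ADAM12, a protease that is known to be induced in cells undergoing TGF-β responses, had the most regions of the ADAM loci, with 9 merged regions. It had 9 regions untreated, 8 with TGF-β, 7 in set 1 cells and 5 in set 2 cells, so that none was gained with TGF-β. The promoter region at 0.21 kb held 18 fragments untreated, 32 with TGF-β, 27 in set 1 cells and 24 in set 2 cells. The region at -5.48 kb had a fold enrichment of 9.30, 10.7, 10.5 and 6.37 and held 27, 38, 40 and 22 fragments. Here set 2 alone stood lower, and its interval (0.667 to 1.61 FPM) lay below that of siControl with TGF-β (1.65 to 3.21 FPM), but not after scaling to the same median summit. The regions within the introns at 8.20 and 152 kb, with 18 and 16 fragments untreated, were called with neither siRNA set. The intronic region at 46.2 kb, with 28 fragments untreated, held 16 with set 1 and was not called with set 2. The region at -29.5 kb held 30, 30, 33 and 32 fragments, with intervals that overlapped.

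ADAM8 and ADAM19 had promoter regions in siControl with TGF-β alone. At Adam8, which encodes a sheddase first known from leukocytes, the region at -0.057 kb held 22 fragments with TGF-β, and the calling limits were 13 untreated and 14 with either siRNA set. At Adam19, which encodes a sheddase of neuregulins, the region at 1.68 kb held 16 fragments, and the calling limits were 11, 11 and 12. Beside these, gained member regions had a median of 20 fragments. The Adam19 region at -39.7 kb, inside Sox30, showed another pattern, with 19 fragments untreated, 19 with set 1 and none called in the others. ADAM15, an ADAM with a disintegrin domain that binds integrins, had 6 merged regions and none at its own promoter. Its intronic region at 10.4 kb, at the promoter of the ephrin gene Efna4, was the 1 member region called with both siRNA sets only. It held 16 fragments with set 1 and 22 with set 2, and the calling limits were 11 untreated and 12 in siControl with TGF-β. Regions called with both siRNA sets only made up 0.82% of merged member regions and 0.841% of all autosomal regions. The region at -5.02 kb, inside Dcst1, held 23 fragments untreated and 17 with set 1 and was not called in the others.

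ADAM33, an ADAM known from studies of airway mesenchyme, had the strongest region that was lost. The region at -31.2 kb held 28 fragments untreated, and it was not called with TGF-β (calling limit 16), set 1 (16) or set 2 (17). Its neighbour at -32.9 kb held 30 fragments untreated, 38 with TGF-β, 36 in set 1 cells and 26 in set 2 cells, so that adjacent regions of 1 locus had different patterns. Adam28, the remaining ADAM with a protease site that is expressed outside the germline, had no region in any library. Per 100 kb of locus, this group of 9 genes held 3.17 merged regions.

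The other ADAM genes had fewer regions for their length. Of the 3 neural ADAM genes, whose products lack an active protease site, Adam11 and Adam22 had regions and Adam23 had none, with 0.650 merged regions per 100 kb. Of 21 ADAM genes of the germline group, which includes the fertilin genes for sperm-egg interaction, 8 had a region and 13 had none, with 1.12 per 100 kb. The share of all genes with a region in any library was not counted, here or for the other groups. The germline loci held 10 regions untreated, 13 with TGF-β, 11 in set 1 cells and 9 in set 2 cells. Several of these lay near other genes. The region at -0.55 kb of Adam1a (fertilin alpha) lay at the promoter of the kinase gene Mapkapk5 and held 23, 32, 31 and 26 fragments, and it also fell in the locus of Adam1b. A region shared by the loci of Adam9 and Adam32 held 24, 33, 28 and 21 fragments. In the locus of Adam5 an intronic region held 21 fragments untreated and 18 with set 1 and was not called in the others.

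**Figure D3:**
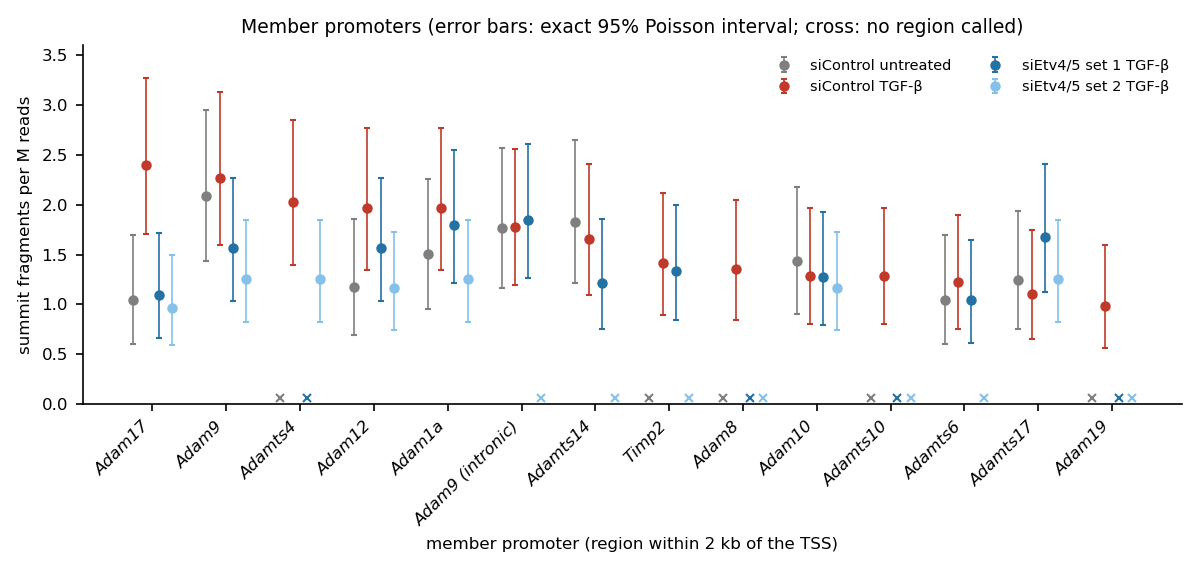
Summit fragments divided by the estimated depth in M reads (FPM) for the 14 regions within 2 kb of a member TSS, by library (colours), with exact 95% Poisson intervals as error bars and crosses at the bottom where no region was called. At Adam17 the siControl TGF-β value is 2.40 FPM, with an interval that overlaps that of set 1 and lies just above that of untreated cells. Adam10 lies between 1.16 and 1.44 FPM in all 4 libraries.

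Among the ADAMTS genes that cleave proteoglycans (Adamts1, Adamts4, Adamts5, Adamts8, Adamts9, Adamts15 and Adamts20), 6 of 7 had a region in any library, a share not counted over all genes. Their loci held 5 regions untreated, 13 with TGF-β, 6 in set 1 cells and 3 in set 2 cells. Adamts9 had no region in any library, although its promoter holds 29 CpGs in 300 bases. Adamts4, which encodes an aggrecanase, had the region with the most fragments of all members called in every library. This region, at -27.8 kb and at the promoter of Tomm40l, had a fold enrichment of 10.4, 13.9, 13.3 and 8.13 and held 31, 49, 47 and 24 fragments. With set 2 its interval (0.744 to 1.73 FPM) lay below that of siControl with TGF-β (2.23 to 3.98 FPM), a separation that was lost after scaling to the same median summit. At the Adamts4 promoter itself, at -0.095 kb, the region held 33 fragments with TGF-β and 26 with set 2, and was not called untreated (calling limit 15) or with set 1 (16). The siRNA sets therefore differed here, with the region called in 1 of them.

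ADAMTS1, which cleaves versican and aggrecan, had the strongest member region that was called in siControl with TGF-β but with neither siRNA set, of 35 such regions. Of these, 29 were called in siControl with TGF-β alone (23.8% of merged member regions, beside 16% of all). The other 6 were also called untreated (4.92%, beside 7.03% of all). The Adamts1 region lay in an intron at 2.27 kb and held 23 fragments untreated and 38 with TGF-β, with calling limits of 16 with set 1 and 17 with set 2. The lower bound with TGF-β was 1.65 FPM. It is the sequence with 1 AP1 match given above. In the same locus, the region at -17.2 kb was called with TGF-β alone with 23 fragments, and the region at -24.2 kb held 20 with TGF-β and 17 with set 1. Adamts5, which encodes the other main aggrecanase, had 2 regions and neither was called untreated. Its region in a coding exon at 2.40 kb held 25 fragments with TGF-β alone, and its region at -48.7 kb held 27 with TGF-β and 23 with set 1. The loci of Adamts8 and Adamts15 share a region that held 21 fragments untreated and 21 with set 1 and was not called in the others, the 1 ADAMTS region that was lost with TGF-β.

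The procollagen N-propeptidase genes (Adamts2, Adamts3 and Adamts14), whose products trim fibrillar procollagens, held 4, 7, 6 and 3 regions. The Adamts14 region at 1.1 kb held 28 fragments untreated, 27 with TGF-β and 21 with set 1 and was not called with set 2 (calling limit 17). Adamts3 had no untreated region, and its region at 33 kb had a fold enrichment of 11.2 and 24 fragments with TGF-β alone. Adamts12, which with Adamts7 encodes the enzymes that cleave cartilage oligomeric matrix protein, had 7 merged regions, with 2 untreated, 6 with TGF-β, 3 in set 1 cells and 2 in set 2 cells. Its regions at -21.8 and 80.9 kb held 25 and 21 fragments in siControl with TGF-β and 22 each with set 1, and were not called in the others. Those at 19.6 and 94.8 kb were called in siControl with TGF-β alone. Adamts13, whose product cleaves von Willebrand factor, had 4 merged regions, all of them upstream in or near the genes Surf4 and Rexo4.

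Among the fibrillin-linked and other ADAMTS genes, Adamts6, Adamts10, Adamts16 and Adamts17 had regions and Adamts18 and Adamts19 had none. Adamts10, whose product binds fibrillin microfibrils, had 1 region, at its TSS, with a fold enrichment of 10.0 and 21 fragments with TGF-β alone. The calling limits there were 10 untreated and 11 with either siRNA set. At Adamts17 the promoter region was called in all 4 libraries with 19, 18, 29 and 26 fragments. It was among the 4 of 37 member regions called in every library whose fold enrichment with set 2 exceeded that of siControl with TGF-β. This count was not made over all regions. At Adamts6 the promoter region held 16, 20 and 18 fragments and was not called with set 2 (calling limit 16). Adamts16 had no region in untreated cells. With TGF-β it had 4 intronic regions with 15 to 25 fragments, of which those at 47.3 and 108 kb were also called with set 1 with 20 fragments each, and the one at 47.3 kb was called with set 2 with 28.

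**Figure D4:**
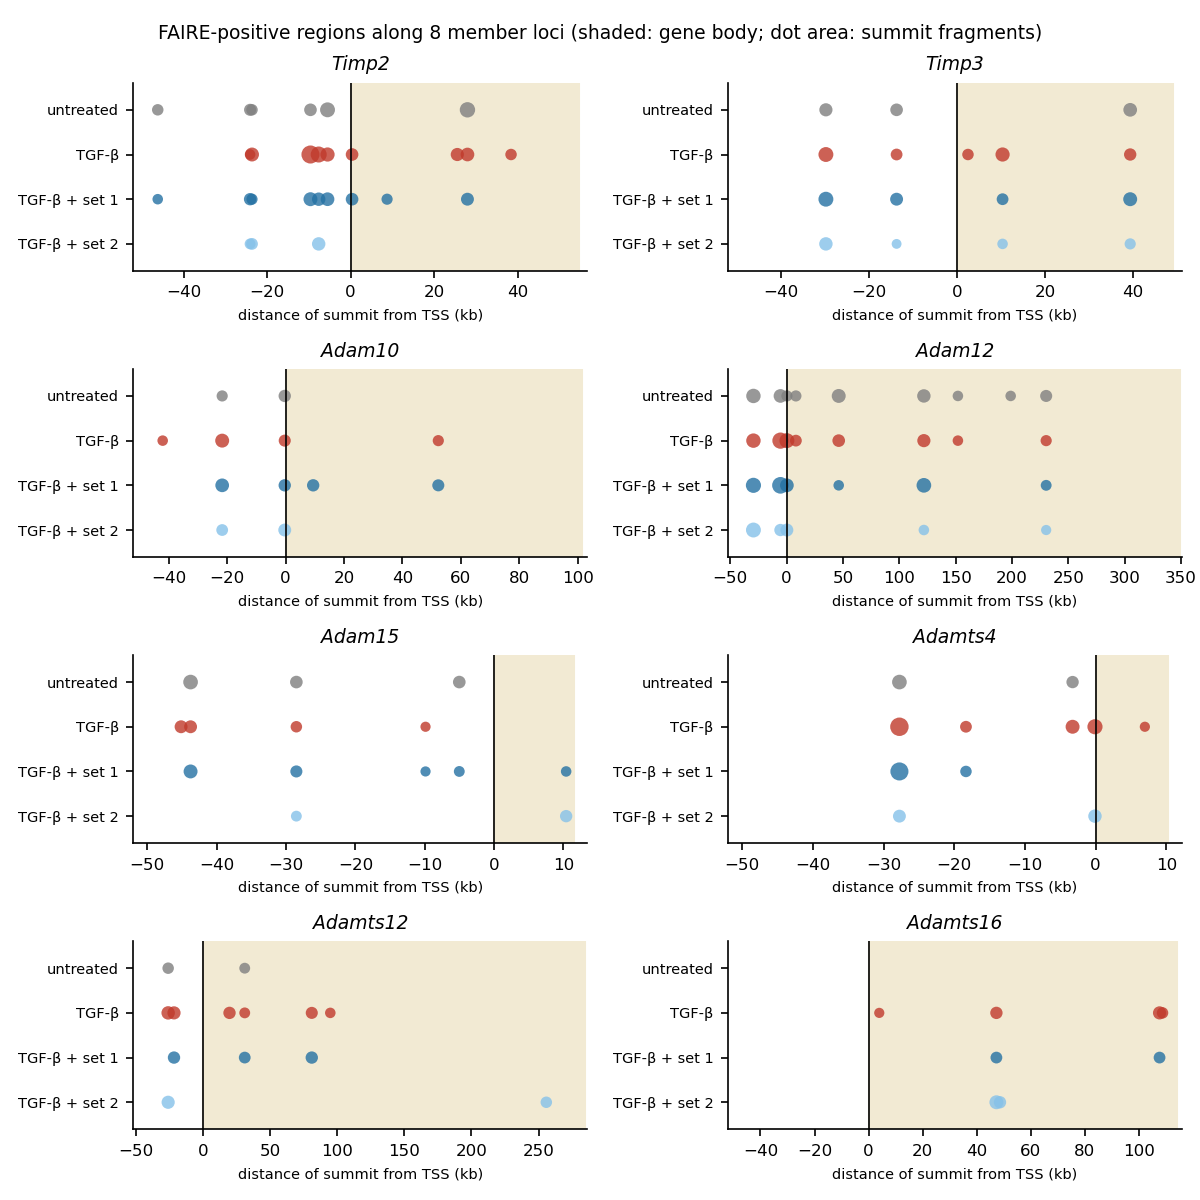
Position of the summits (kb from the TSS, upstream to the left) of FAIRE-positive regions in 8 member loci by library (rows), with the gene body shaded and the area of each dot proportional to the fragments at the summit. Adamts16 has no dot in the untreated row, and the Timp2 dots upstream of the TSS at -7.66 and -9.62 kb are largest with TGF-β, at 37 and 47 fragments.

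The TIMP loci were the densest of the groups, with 6.82 merged regions per 100 kb over 3 genes, and held 11, 16, 15 and 8 regions. Timp2 gave 11 of the 18 merged regions (10.5 per 100 kb), whereas Timp3 had 5.05 and Timp4 3.32. Some single loci of other groups were denser than Timp3 and Timp4, such as Adam15 (9.76) and Adamts4 (8.31). Merged regions per 100 kb were not counted over all genes. Timp2, whose product inhibits metalloproteases and also takes part in the activation of pro-MMP2, had 11 merged regions, with 6 untreated, 9 with TGF-β, 9 in set 1 cells and 3 in set 2 cells. The region at its promoter, in an untranslated exon at 0.337 kb, held 23 fragments with TGF-β and 23 with set 1, and was not called untreated (calling limit 12) or with set 2 (14). The region at -7.66 kb was the strongest that was gained in any member locus, with 37 fragments with TGF-β, 26 in set 1 cells and 26 in set 2 cells, against a calling limit of 19 untreated. The region at -9.62 kb held 23 fragments untreated, 47 with TGF-β and 28 with set 1 and was not called with set 2 (calling limit 23). Its intervals untreated (0.954 to 2.26 FPM) and with TGF-β (2.12 to 3.84 FPM) overlapped. At -23.6 kb a region was called in all 4 libraries with 19, 28, 18 and 20 fragments.

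TIMP3, the matrix-bound inhibitor of ADAM17 and aggrecanases, had 5 merged regions but none at its promoter, although the promoter holds 22 CpGs in 300 bases. The region at -29.8 kb, inside Syn3, held 25 fragments untreated, 32 with TGF-β, 32 in set 1 cells and 26 in set 2 cells. The intronic region at 10.4 kb was gained, with a fold enrichment of 11.9 and 29 fragments with TGF-β, 20 in set 1 cells and 16 in set 2 cells, against a calling limit of 11 untreated. The region at 39.4 kb held 27, 22, 28 and 18 fragments, with intervals that overlapped. Timp4 had 2 regions. The region at -19.8 kb, inside Syn2, held 25, 22, 21 and 20 fragments. The region at -32.1 kb had a fold enrichment of 12.8, 13.2 and 10.3 in the first 3 libraries and was not called with set 2, where 13 fragments were needed.

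At the 37 member regions called in all 4 libraries, a strength was available in every library. Regions below the calling limit in any library are left out, so changes that cross this limit do not enter the ratios. With TGF-β the log2 ratio of fold enrichment had a median of 0.13 and ranged from -0.48 to 1.00, with 21 regions above 0 and 16 below. The median over all 10538 autosomal regions called in all 4 was 0.15. With set 1 the member median was -0.04 (all regions -0.18). With set 2 it was -0.41 (all regions -0.41), with 33 of 37 member regions below 0. How many of all regions lay above or below 0 was not counted in any comparison. Separate 95% intervals in FPM were found at 1 member region that was higher with TGF-β, the Adam17 promoter, and at 0.247% of all regions. With set 2 they were found at 3 that were lower, which were the Adam17 promoter, the Adam12 region at -5.48 kb and the Adamts4 region at -27.8 kb, and at 11.4% of all. With the libraries scaled to the same median summit, 0 of 37 member regions were lower with set 2 and 0 higher with TGF-β, and over all regions 0.019% were lower and 0.332% higher with set 2. Without that scaling, no member region was higher with set 2 (0.00949% of all), none was lower with TGF-β (0% of all), and none was separate with set 1 (0.493% of all lower and 0% higher).

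**Figure D5:**
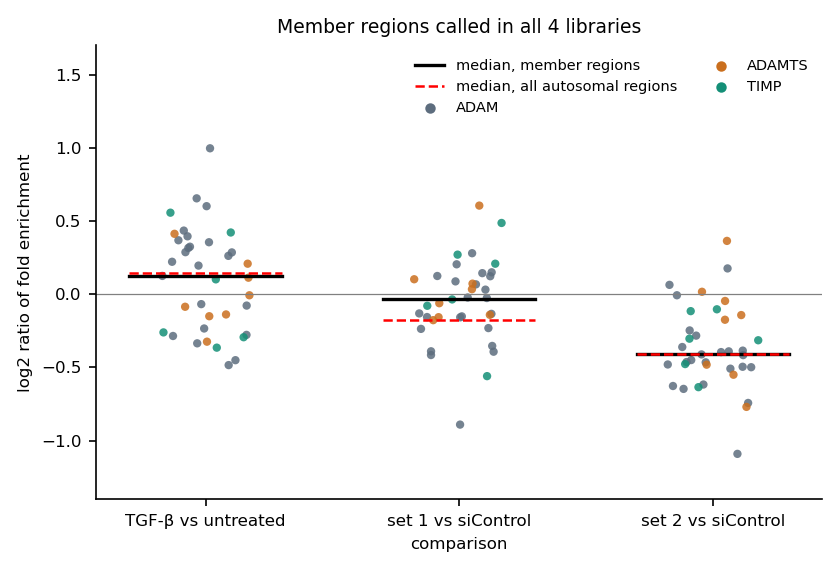
Log2 ratio of fold enrichment at the 37 member regions called in all 4 libraries (1 point each, coloured by family) for the 3 comparisons, with the member median (black) and the median of all autosomal regions (dashed). The highest point with TGF-β, at 1.00, is the Adam17 promoter. With set 2 33 of 37 points lie below 0, a count not made over all regions. The set 2 medians of members and of all regions are both -0.41.

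Most member regions were distal (farther than 2 kb from any TSS), at 87 of 122, as were most autosomal regions, at 23843 of 35433. Of the 122 merged regions, 44 lay in a member intron, 3 in a member exon outside promoters, 14 at a member promoter, 17 at the promoter of another protein-coding gene, 16 upstream inside another gene and 28 upstream in intergenic sequence. These places were not counted over all autosomal regions. The intronic regions numbered 18 untreated, 36 with TGF-β, 22 in set 1 cells and 12 in set 2 cells. Of 45 distal regions in a member body, 16 (35.6%) were called in siControl with TGF-β alone, and for distal regions in the bodies of all autosomal protein-coding genes this share was 19.6% of 11309. A region inside or upstream of a member may act on another gene, which FAIRE-seq does not measure.

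Motifs were counted in the 300 bp windows of the 87 member regions farther than 2 kb from any TSS. The AP1 motif was present in 50 (57.5%, 47.0 to 67.3), beside 52% of 23843 distal autosomal regions. An ETS motif was present in 14 (16.1%, 9.83 to 25.2), beside 18.9%, and the RUNX motif in 16 (18.4%, 11.6 to 27.8), beside 12.5%. ETS motifs were present in 10 of the 26 distal member regions called in all 4 libraries (38.5%, 22.4 to 57.5) and in 4 of the 61 called in fewer (6.56%, 2.58 to 15.7). Over all distal regions these shares were 22.9% and 17.7%. With a stricter ETS motif that needs an A before it, 7 of 87 distal member regions held a match (8.05%, 3.95 to 15.7), beside 6.14% of all, and the contrast became 4 of 26 (15%, 6.15 to 33.5) against 3 of 61 (4.92%, 1.69 to 13.5), with intervals that overlapped. The regions called in all 4 were also the stronger, with a median of 27.5 fragments in their highest library against 20, and the part of strength in this difference was not tested. AP1 was present in 23 of 39 gained distal member regions (59.0%, 43.4 to 72.9), beside 57.6% of all gained, and in 1 of 7 that were lost, beside 24.9% of all lost. A match is a description of the letters in a window and not of binding.

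Among the distal regions called in all 4 libraries, 3 held all 3 motifs, and they are printed because they show how the motifs sit together (chosen after the values were seen, mm10, + strand).
Adam9 and Adam32, chr8:24975279-24975578: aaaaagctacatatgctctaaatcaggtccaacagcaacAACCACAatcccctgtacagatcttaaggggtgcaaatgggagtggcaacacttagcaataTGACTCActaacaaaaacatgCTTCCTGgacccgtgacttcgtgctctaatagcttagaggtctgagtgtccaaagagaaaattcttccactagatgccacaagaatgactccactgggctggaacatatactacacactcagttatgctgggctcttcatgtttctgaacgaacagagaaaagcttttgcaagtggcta
Timp3, chr10:86270450-86270749: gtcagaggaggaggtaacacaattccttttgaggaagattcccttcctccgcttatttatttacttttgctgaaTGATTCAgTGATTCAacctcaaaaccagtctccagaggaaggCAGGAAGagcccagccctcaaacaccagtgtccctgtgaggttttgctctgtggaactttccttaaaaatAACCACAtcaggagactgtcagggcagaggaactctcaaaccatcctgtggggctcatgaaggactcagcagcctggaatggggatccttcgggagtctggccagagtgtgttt
Timp2, chr11:118379211-118379510: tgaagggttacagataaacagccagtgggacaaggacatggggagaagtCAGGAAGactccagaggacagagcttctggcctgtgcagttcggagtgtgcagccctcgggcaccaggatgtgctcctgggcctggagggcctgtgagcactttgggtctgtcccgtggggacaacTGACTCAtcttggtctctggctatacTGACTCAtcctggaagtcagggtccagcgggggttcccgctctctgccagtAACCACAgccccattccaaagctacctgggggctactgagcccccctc
In the window shared by Adam9 and Adam32 the AP1 and ETS matches start 21 bases apart, and in the Timp3 window the AP1 matches follow each other with 1 base between them. Their fragment counts, given above for each region, were highest in siControl with TGF-β in all 3, with set 1 at the same count at Timp3.

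Genes that act together with the members were listed for comparison. Of 10 genes for partners of ADAM10 and ADAM17, such as the iRhom genes Rhbdf1 and Rhbdf2, the TspanC8 tetraspanin genes and Furin, 8 had a region untreated, 9 with TGF-β, 8 in set 1 cells and 7 in set 2 cells, and they held 26, 35, 22 and 14 regions. Tspan14, whose product accompanies ADAM10 to the cell surface, had a promoter region in every library and 4, 8, 4 and 2 regions in all. Of 6 EGF-family ligand genes whose products are shed by ADAMs, 4, 5, 5 and 4 had a region, with 14, 15, 14 and 8 regions. Tgfa had a promoter region with TGF-β and with set 1. Of 4 proteoglycan genes whose products are ADAMTS substrates, 2, 3, 3 and 2 had a region, with 8, 6, 7 and 3 regions. Vcan, the gene of versican, had no region untreated or with set 2 and 2 with TGF-β and with set 1, and Acan, the gene of aggrecan, had none in any library. The partner loci held most regions in the library with the longest list (siControl with TGF-β) and fewest in that with the shortest (set 2). The EGF ligand loci held 14 to 15 regions in every library but set 2. Of all autosomal protein-coding genes, 67.9% had a region untreated, 70.9% after TGF-β, 66.8% in set 1 cells and 57.7% in set 2 cells. The counts for partner, ligand and substrate genes were not corrected for list length, and a difference from all genes was not tested.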

How the data were processed

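The members, gene lists and rules were chosen with earlier results of these data known. FAIRE-seq had been performed in 4 EpRas cell groups with 1 list of regions each. The authors sequenced on an Ion Proton, mapped the reads with bowtie2 to mm10 and called peaks with MACS2 (version 2.1.0 in the submitters' processing notes). The deposited lists give a fold enrichment (ratio of summit to local background), −log10 p-value and −log10 q-value, a score in whole numbers, which the authors' MACS2 run took from the q-value, and the summit position in bp from the start. The lowest −log10 q-value was 4.52. All 87733 autosomal peaks lay within mm10 chromosomes.

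From these, the fragments at each summit were solved (fold enrichment = pileup + 1 over background + 1), whole in 100% of peaks. Depth was estimated with an effective genome size of 1.87 Gb and is 15.3 M to 20.7 M reads, so that a median summit of 21 to 23 fragments has a wide Poisson interval. The calling limit assumes that the local background relative to depth was the same in the library where the region was not called. Genes came from GENCODE vM21. Peaks that overlapped by 1 bp were shared or merged, and for each merged region the strongest peak of each library was used. Promoters were within 2 kb of a TSS, measured from the middle of a region. The solver and the counting were tested on simulated data. With 1 list per group there was no test between conditions, and gains and losses were described beside the share over all autosomal regions. Values are given for members with a promoter region or with 5 or more regions, for the strongest of each calling pattern and for members listed by name, and other regions were named from their patterns after values were seen. A region that the rule would name is not reported here. Motifs were read from the mm10 genome with pysam 0.24.0. Python 3.11.15, numpy 2.4.6, scipy 1.17.1 and pandas 2.3.3 were used. Alternatives were the length of the lists, the upstream window, the promoter distance, the overlap rule, the q-value, the scale and the motif, and their effect is given in the closing section.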

Additional observations from a re-analysis of the deposited data

How the results depend on the processing

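No paired analysis was possible because each group has 1 list, and for the same reason no replicate could be left out. Of 98 recomputed values, 74 stayed within the limits set (counts within 1.5 times, other values within their interval). With all lists cut to 14925 peaks, promoters with a region numbered 5 untreated and 7 with TGF-β, and the TGF-β loci held 46 regions. Gained and lost regions were then 20 and 22, those absent with set 1 and set 2 were 17 and 17, and those called with set 1 or set 2 only were 22 and 20. The shares over all regions at this length were 34.4% gained and 34.2% lost. With 10 kb upstream, the loci held 34, 61, 42 and 25 regions. On the FPM scale the set 2 median was -0.64 (all regions -0.71). With 99% intervals, 0 regions were higher with TGF-β and 1 was lower with set 2, and after scaling to the median summit there were 0 and 0. With a stricter ETS motif the share was 8.05% (all distal regions 6.14%). The rule on calling limits, chosen after seeing the data, left 15 of 104 gained and 6 of 66 lost (14.8% and 5.7% of all). It left 17 absent with set 1 and 39 absent with set 2 of 104 (15.5% and 40.5% of all). By this rule 2 of 78 were called with set 1 only and 0 of 49 with set 2 only (3.12% and 0.539% of all). The causes of these shifts were not tested, other than that shorter lists and narrower windows hold fewer regions. Depth limits single regions, since 20 fragments cannot be told from 26 by their intervals.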
